A study of Mus musculus with 12 samples.

Results

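The secretases are the proteases that cut the amyloid precursor protein APP, and 10 of their genes were followed here on mouse brain arrays. Members were taken by symbol: every probe set whose platform annotation gave Adam9, Adam10, Adam17, Bace1, Bace2, Psen2, Ncstn, Aph1a, Aph1b or Psenen as its only gene. This gave 27 of the 45037 probe sets tested and 10 of 18193 genes. All 10 genes had at least 1 probe set, and the number ranged from 1 (Adam9, Psenen) to 5 (Bace2).

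RNA came from the prefrontal cortex and the hippocampus of female mice aged 38 to 40 weeks, after 6 generations of back-crossing to C57BL/6. APLP2-KO mice (APLP2-/-) lacked the APP relative APLP2 and had intact App. APPsα-DM mice (APPα/αAPLP2-/-) also lacked APLP2 and carried on both App alleles an edit that, as generally described, leaves the secreted ectodomain APPsα as the product. Thus every group lacked APLP2, and no wild-type group was analysed here. Each genotype and tissue had 3 arrays, 12 in all, from 3 mice of each genotype according to the series design. The labels do not say which cortex and hippocampus came from the same mouse.

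Alpha-secretases are membrane-bound metalloproteases that cut APP within the amyloid beta sequence and release APPsα, and ADAM10 is the main one in neurons. Beta-secretase cleavage, in the brain mainly by BACE1, starts the amyloidogenic route. The stubs left by either cut are then cleaved inside the membrane by gamma-secretase, which is assembled from a presenilin, nicastrin, an APH-1 protein and PEN-2. In APPsα-DM mice the secreted fragment is made from the edited allele without a secretase cut. The genotype comparison therefore asks whether secretase transcript levels differ when the substrate APP is replaced by its secreted product.

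Probe sets of a gene are numbered in the order of their identifiers, and the set with the highest mean stands for the gene where 1 value is given. Values are log2 RMA signals, so a difference of 1 is a doubling. Probe affinities differ, so levels of different probe sets were not compared beyond the choice of the brightest set. Of the 27 member sets, 7 had a mean below 6, a level that 48.3% of all tested probe sets reached: Adam10 set 4, Adam17 set 1, Bace2 sets 1, 2, 3 and 5, and Ncstn set 2. The brightest set of each of the 10 genes lay above 6.

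The promoters of the 2 APH-1 genes among the members are shown because 1 probe set of each passed the tissue test. Aph1a set 2 was lower and Aph1b set 1 higher in hippocampus, while the other sets of these genes did not pass. Each window runs from 250 bases before to 50 bases after the RefSeq start site (build GRCm38.p6) and is written 5′ to 3′ on the strand of the gene. Aph1a lies on chromosome 3, with its window at chr3:95893671-95893970 on the plus strand, and Aph1b lies on chromosome 9, at chr9:66795374-66795673 on the minus strand. Capitals mark every match, on either strand, to the GC box (GGGCGG) or the CCAAT box (CCAAT).
Aph1a: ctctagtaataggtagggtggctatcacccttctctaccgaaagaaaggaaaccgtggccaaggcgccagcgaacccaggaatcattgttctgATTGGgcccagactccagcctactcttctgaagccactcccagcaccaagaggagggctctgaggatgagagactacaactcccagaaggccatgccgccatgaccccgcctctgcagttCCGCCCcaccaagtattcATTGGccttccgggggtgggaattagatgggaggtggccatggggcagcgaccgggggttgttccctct
Aph1b: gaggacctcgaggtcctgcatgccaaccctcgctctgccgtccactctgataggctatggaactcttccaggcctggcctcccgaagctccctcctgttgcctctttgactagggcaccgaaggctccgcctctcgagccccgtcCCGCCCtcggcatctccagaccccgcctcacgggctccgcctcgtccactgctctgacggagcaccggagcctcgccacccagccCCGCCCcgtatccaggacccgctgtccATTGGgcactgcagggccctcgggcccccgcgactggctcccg
The Aph1a window held 1 GC box and 2 CCAAT boxes, the Aph1b window 2 GC boxes and 1 CCAAT box, and neither held the TATA box (TATAAA). Of 32851 RefSeq promoter windows of 300 bases, 35.7% held the GC box, 37.4% the CCAAT box and 13.6% the TATA box. The Aph1b window was 69.3% G and C with 24 CpG dinucleotides, and the Aph1a window was 58% with 10, against medians of 52.7% and 7 over all windows. These matches describe the letters only. Windows were found for 7 of the 10 member genes.

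The arrays carried their labelled genotype and tissue. A probe set of App that responds to the edit lay between 12.49 and 12.77 on the 6 APLP2-KO arrays and between 7.70 and 8.20 on the 6 APPsα-DM arrays. In hippocampus 5 of 6 measured cortex markers were lower and 1 higher, and 6 of 6 hippocampus markers were higher, their mean level being 6.57 to 6.81 on cortex arrays and 8.94 to 9.19 on hippocampus arrays. Other tissue moved with these groups. All 5 measured striatal markers were lower in hippocampus (list mean 9.62 to 10.3 on cortex arrays, 7.39 to 7.76 on hippocampus arrays), 4 of 6 astrocyte markers were higher and 2 lower (10.1 to 10.4 and 10.4 to 10.6), and choroid plexus markers spread from 5.29 to 8.32 among cortex arrays and from 6.08 to 9.37 among hippocampus arrays. The choroid plexus gene Ttr was at 14.0 on APLP2-KO cortex array 3 and 14.2 on APPsα-DM cortex array 2, against 8.20 to 9.42 on the other 4 cortex arrays. In bulk tissue, fewer cells of a type and less RNA per cell cannot be told apart, and the part of tissue composition in the results below was not tested.

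**Figure D1:**
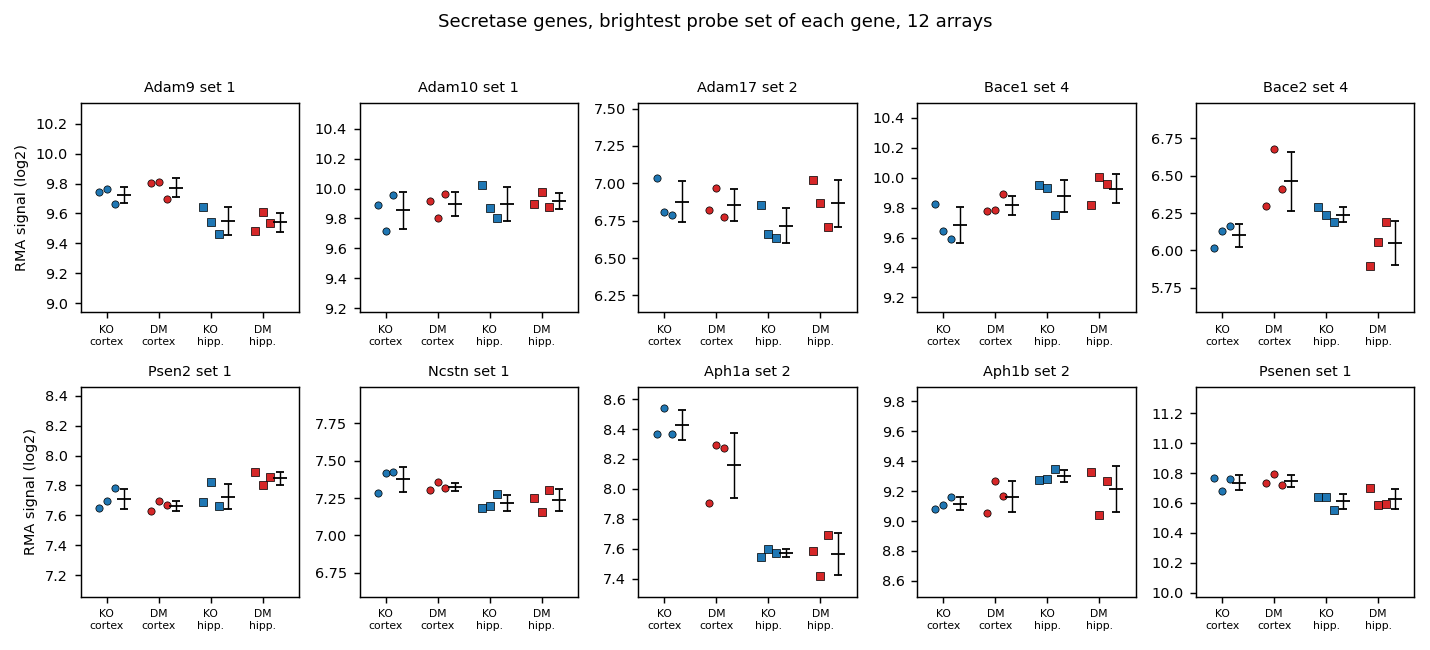
RMA signal (log2, vertical axis, spanning the same range in every panel) of the brightest probe set of each of the 10 secretase genes on the 12 arrays. KO is APLP2-KO (blue), DM is APPsα-DM (red), circles are cortex arrays, squares are hippocampus arrays, and the bars give the mean ± SD of 3 arrays. Aph1a, shown by set 2, lay between 7.91 and 8.54 on the cortex arrays and between 7.42 and 7.69 on the hippocampus arrays. Set 2 was the brightest Aph1a set by a small margin (mean 7.93, against 7.87 for set 3), through its cortex arrays alone. In hippocampus its mean of 7.57 was below the 7.86 of set 3.

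Secretase genes did not pass the test between the genotypes in either tissue. In cortex, 0 of 27 member sets had an adjusted p below 0.05 (limma, Benjamini-Hochberg over all 45037 sets), against 4 sets (0.00888%) among all. In hippocampus the count was again 0 of 27, beside 4 sets (0.00888%) overall. Differences of APPsα-DM minus APLP2-KO ran from -0.27 to 0.36 in cortex and from -0.19 to 0.29 in hippocampus. Their median size was 0.0587 in cortex and 0.0600 in hippocampus, close to 0.0651 and 0.0626 over all sets. At an unadjusted p below 0.05, 6 member sets remained in cortex, where 4.50% of all sets did, and 2 in hippocampus, where 4.11% did. Averaging the tissues of each genotype and replicate number gave 0 of 27 members again (0.00888% of all sets), with 2 at an unadjusted p below 0.05 (4.03% of all sets), both of Bace2.

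The intervals show what difference the 12 arrays could have missed in a single set. Each holds for 1 set in 1 comparison and not for all sets jointly. For the brightest sets, the 95% intervals of the genotype difference reached from 1.41-fold lower to 1.49-fold higher in cortex and from 1.33-fold lower to 1.29-fold higher in hippocampus. For the average of both tissues they reached from 1.23-fold lower to 1.19-fold higher. Over all 27 sets the intervals reached further, from -0.51 to 0.60 on the log2 scale in cortex and from -0.41 to 0.54 in hippocampus. The number of arrays limits this precision. The spread is that between the 3 samples within a group, pooled over the groups of the fit and moderated by limma.

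**Figure D2:**
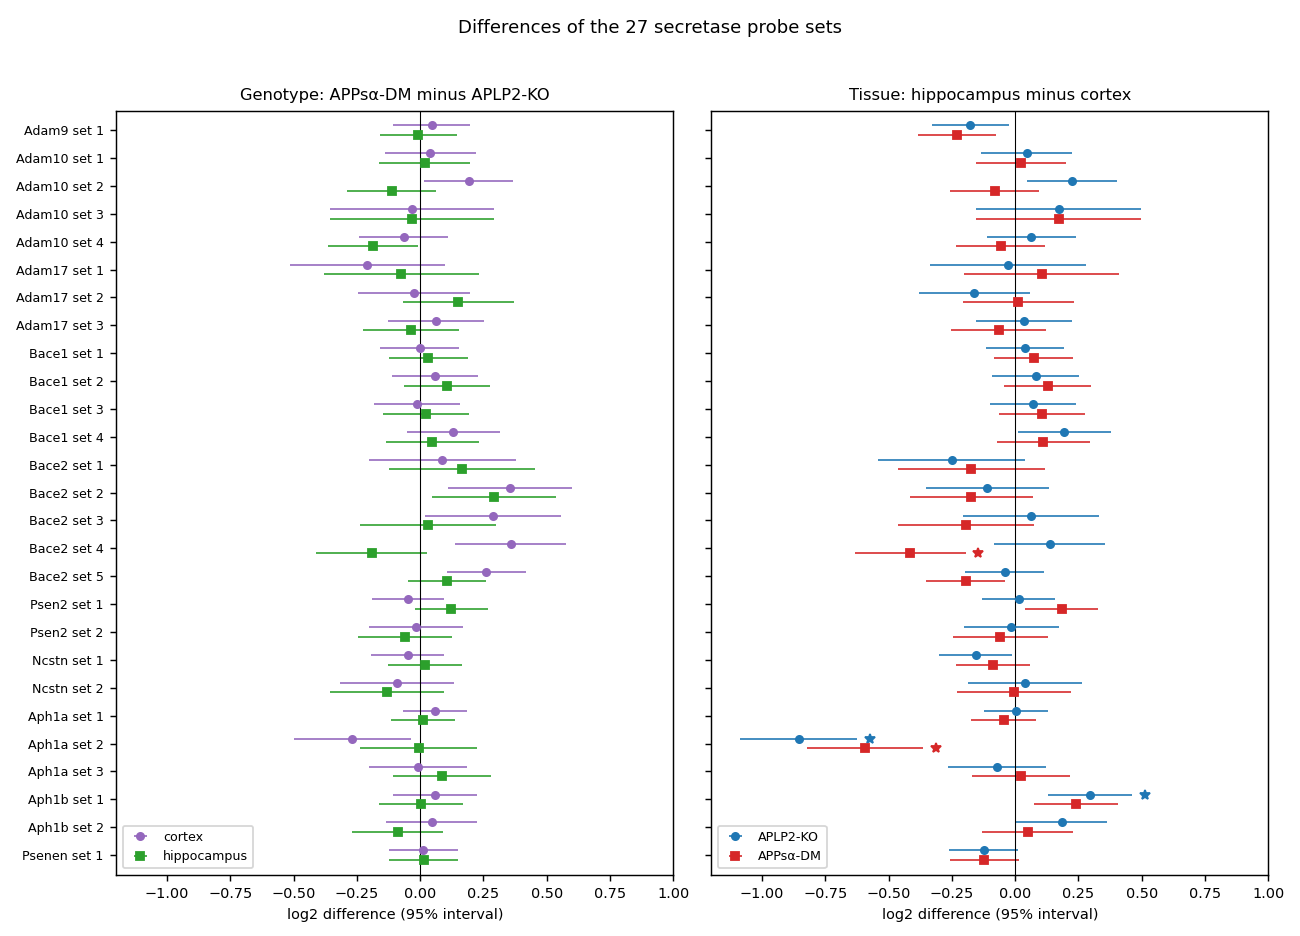
Log2 differences (horizontal axis) of the 27 secretase probe sets with 95% intervals. The left panel gives APPsα-DM minus APLP2-KO in cortex (purple circles) and hippocampus (green squares), and the right panel gives hippocampus minus cortex in APLP2-KO (blue circles) and APPsα-DM (red squares). Stars mark an adjusted p below 0.05. No star stands on the left. On the right 2 stand in each genotype, for Aph1a set 2 and Aph1b set 1 in APLP2-KO and for Aph1a set 2 and Bace2 set 4 in APPsα-DM.

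The alpha-secretase genes had small genotype differences. Adam9, a protease able to cut APP that is also reported to act on ADAM10 itself, differed by 0.05 ± 0.07 (SE) in cortex and -0.01 ± 0.07 in hippocampus. The brightest set of Adam10, the gene of the main neuronal alpha-secretase, differed by 0.04 ± 0.08 in cortex and 0.02 ± 0.08 in hippocampus. Adam17 encodes TACE, the sheddase of tumour necrosis factor, and its brightest set was at a difference of -0.02 ± 0.10 (cortex) and 0.15 ± 0.10 (hippocampus).

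Adam10 set 2, a dimmer set of that gene, had an unadjusted p below 0.05 in cortex. It read 6.78, 6.92 and 6.97 on the APLP2-KO cortex arrays and 7.14, 6.99 and 7.12 on the APPsα-DM cortex arrays, so the groups did not overlap. Its difference of 0.19 ± 0.08 had an adjusted p of 1 (unadjusted p = 0.0341, limma), and in hippocampus it was -0.11 ± 0.08. Adam10 set 4, one of the dim sets, was at -0.19 ± 0.08 in hippocampus (unadjusted p = 0.0401, adjusted p = 1). The 4 Adam10 sets did not share a sign in cortex, where 2 lay above 0 and 2 below.

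The beta-secretase genes differed from each other in how their probe sets behaved. Bace1, the gene of the main neuronal beta-secretase, had 4 sets with cortex differences between -0.01 and 0.13 and hippocampus differences between 0.02 and 0.11, none with an unadjusted p below 0.05. Bace2 encodes the close relative of BACE1, which can also cut APP inside the amyloid beta sequence, and it lies on chromosome 16, as App does. All 5 Bace2 sets lay above 0 in cortex, from 0.09 to 0.36, and 4 of them had an unadjusted p below 0.05. Each of the 5 sets read highest on APPsα-DM cortex array 2, one of the arrays high in Ttr. Leaving out each array in turn gave cortex differences of 0.23 to 0.44 for set 2 and 0.25 to 0.44 for set 4. For set 3 this gave 0.23 to 0.35, and for set 5 0.23 to 0.32. In hippocampus 4 of the 5 lay above 0, within a range of -0.19 to 0.29. The sets are annotated to the same gene and were read on the same arrays, so they are not independent of each other. Which transcripts each set matches was not checked.

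Bace2 set 4 was the only Bace2 set with a mean above 6. Like set 3, it carries the suffix of probe sets whose probes can match unrelated transcripts, although the annotation names Bace2 alone. Set 4 read 6.02, 6.13 and 6.16 on the APLP2-KO cortex arrays and 6.29, 6.68 and 6.41 on the APPsα-DM cortex arrays. On the hippocampus arrays it read 6.29, 6.24 and 6.19 in APLP2-KO and 5.89, 6.06 and 6.19 in APPsα-DM. APPsα-DM arrays were thus the higher ones in cortex and the lower ones in hippocampus, with no overlap in either tissue, as for 0.362% of all sets. Read the other way, the same values also separated hippocampus from cortex arrays of each genotype in opposite directions, as for 0.238% of all sets. Both readings rest on the same arrays, so they are not independent results. Lack of overlap is weak evidence here, since the smallest two-sided exact p for 3 against 3 arrays is 0.1. The separation in hippocampus was slight, since the lowest APLP2-KO array read 6.189 and the highest APPsα-DM array 6.187. The cortex difference was 0.36 ± 0.10 (1.28-fold, unadjusted p = 0.00382) and the hippocampus difference -0.19 ± 0.10 (unadjusted p = 0.0812), each with an adjusted p of 1 in limma.

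Bace2 set 2 was higher on all APPsα-DM arrays than on all APLP2-KO arrays of the same tissue. In cortex it read 4.27, 4.36 and 4.38 in APLP2-KO and 4.53, 4.95 and 4.60 in APPsα-DM. In hippocampus it read 4.27, 4.21 and 4.20 in APLP2-KO and 4.50, 4.71 and 4.34 in APPsα-DM. These levels were dim, and the mean genotype difference of 0.32 ± 0.09 had an unadjusted p of 0.00778 and an adjusted p of 1 (limma). In cortex, Bace2 set 5 differed by 0.26 ± 0.07 (unadjusted p = 0.00322) and set 3 by 0.29 ± 0.12 (unadjusted p = 0.0373), also with adjusted p values of 1. Over the members, 5 sets were higher and 1 lower without overlap in cortex, against 8.73% of all sets (4.07% higher, 4.66% lower). In hippocampus 1 was higher and 2 lower, against 9.88% (4.10% and 5.78%). The endothelial marker list averaged 7.22 to 7.64 in APLP2-KO and 7.46 to 7.71 in APPsα-DM cortex, and 7.12 to 7.22 and 7.35 to 7.57 in hippocampus, with 0 of its 6 genes past limma's adjusted test between genotypes in either tissue and, at an unadjusted p below 0.05, 1 in cortex and 4 in hippocampus. Its part in the Bace2 values was not tested.

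**Figure D3:**
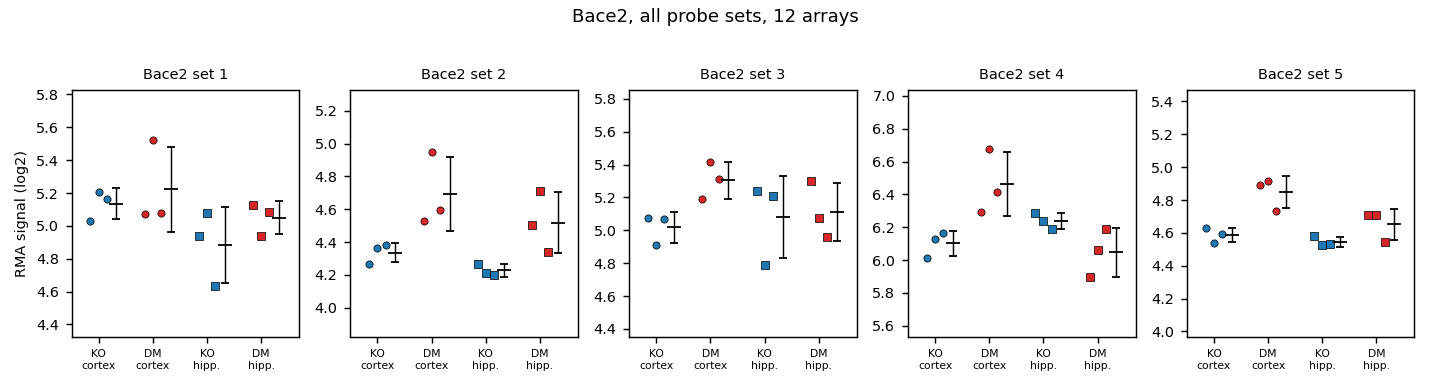
RMA signal (log2, vertical axis) of the 5 Bace2 probe sets by group, with KO for APLP2-KO (blue) and DM for APPsα-DM (red), circles for cortex and squares for hippocampus, and bars for the mean ± SD of 3 arrays. APPsα-DM cortex arrays lie above APLP2-KO cortex arrays without overlap in sets 2 to 5, and in hippocampus the order is turned in set 4.

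The gamma-secretase subunit genes showed little between genotypes. Psen2, a presenilin gene that supplies the catalytic subunit, differed by -0.05 ± 0.07 in cortex and 0.12 ± 0.07 in hippocampus. Ncstn, the gene of the substrate-docking subunit nicastrin, differed by -0.05 ± 0.07 and 0.02 ± 0.07. Psenen, which encodes PEN-2, the subunit needed for the presenilin to mature, differed by 0.01 ± 0.06 in both tissues. Aph1b, one of the APH-1 scaffold genes, had differences of 0.05 ± 0.08 and -0.09 ± 0.08 in its brightest set. For Aph1a, another APH-1 gene, set 2 differed by -0.27 ± 0.11 in cortex (unadjusted p = 0.0263, adjusted p = 1, limma) and by -0.01 ± 0.11 in hippocampus, while sets 1 and 3 lay at 0.06 and -0.01 in cortex.

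Whether the genotype difference changed with the tissue was tested as 1 term. No member passed (0 of 27, and 0% of all 45037 sets), and 2 had an unadjusted p below 0.05, against 3.79% of all sets. These were Bace2 set 4, whose hippocampus difference lay 0.55 below its cortex difference (-0.55 ± 0.14, unadjusted p = 0.00219, adjusted p = 1), and Adam10 set 2 (-0.30 ± 0.11, unadjusted p = 0.0204, adjusted p = 1).

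Between the tissues some secretase genes did change. Averaged over both genotypes, 3 of 27 member sets had an adjusted p below 0.05: Aph1a set 2 and Adam9 were lower in hippocampus, and Aph1b set 1 was higher. Of all sets 21.0% passed, 10.3% higher and 10.7% lower, so the members' count of 3 was no larger than that share gives. In APLP2-KO mice 2 of 27 passed (12.6% of all sets), and in APPsα-DM mice 2 of 27 passed (10.6%). The median size of a member's mean tissue difference was 0.0993, against 0.0924 over all sets. When dim sets were left out, so that 20 member sets were tested among 21755, 6 members passed in the mean of both genotypes, where 39.5% of all sets so tested did: Bace1 set 4, Ncstn set 1 and Psenen joined the 3 sets above.

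Aph1a set 2 had the largest tissue difference of the members. It read 8.37, 8.54 and 8.37 in APLP2-KO cortex and 7.55, 7.59 and 7.57 in APLP2-KO hippocampus. In APPsα-DM it read 7.91, 8.29 and 8.27 in cortex and 7.58, 7.42 and 7.69 in hippocampus. No hippocampus array reached the lowest cortex array. The level fell from 8.29 ± 0.21 (SD, n = 6) in cortex to 7.57 ± 0.09 (SD, n = 6) in hippocampus, a difference of -0.72 ± 0.07 (SE; 1.65-fold lower, limma adjusted p = 1.62e-05). It was 1.81-fold lower in APLP2-KO (-0.85 ± 0.11, adjusted p = 0.000148) and 1.51-fold lower in APPsα-DM (-0.59 ± 0.11, adjusted p = 0.00269). When both Ttr-rich cortex arrays were left out, the mean difference was -0.70 (adjusted p = 0.000228).

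The other Aph1a sets did not pass the tissue test. Set 1 was at 7.03 ± 0.05 in cortex and 7.01 ± 0.03 in hippocampus (SD, n = 6), and set 3 at 7.89 ± 0.13 and 7.86 ± 0.07. Their tissue differences were -0.02 ± 0.04 and -0.02 ± 0.06 (adjusted p = 0.789 and 0.835). Set 2 carries the suffix of probe sets that can match transcripts of more than 1 gene, although its annotation names Aph1a alone. The mean of the 3 sets fell by 0.26 on the log2 scale (adjusted p = 0.00161), with a difference in APPsα-DM of -0.21 that did not pass (adjusted p = 0.072).

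Aph1b set 1 moved the other way. It read 7.82, 7.78 and 7.91 in APLP2-KO cortex and 8.12, 8.06 and 8.23 in hippocampus, and in APPsα-DM 7.85, 7.97 and 7.87 in cortex and 8.26, 8.09 and 8.06 in hippocampus. All hippocampus arrays lay above all cortex arrays. The level rose from 7.87 ± 0.07 to 8.13 ± 0.09 (SD, n = 6), a difference of 0.27 ± 0.05 (1.20-fold, limma adjusted p = 0.00309). In APLP2-KO the difference of 0.30 ± 0.08 passed (adjusted p = 0.0217), but it no longer did without APLP2-KO cortex array 1 (0.0642), cortex array 2 (0.0844) or hippocampus array 3 (0.0934). In APPsα-DM the difference was 0.24 ± 0.08 (adjusted p = 0.0669). The brighter Aph1b set 2 was at 9.14 ± 0.08 in cortex and 9.26 ± 0.11 in hippocampus, with a difference of 0.12 ± 0.06 that did not pass (adjusted p = 0.196). A further set, annotated to Aph1b and the related Aph1c together and so no member, differed by 0.19 ± 0.08 (adjusted p = 0.137). The 2 Aph1b member sets followed each other over the 12 arrays with r = 0.733. Their mean was higher in hippocampus by 0.19 (limma adjusted p = 0.0216).

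**Figure D4:**
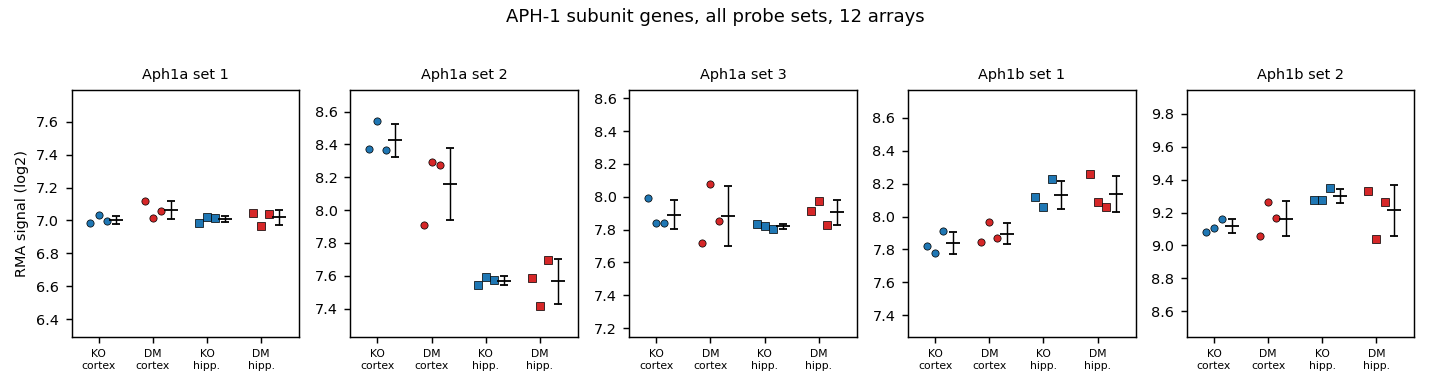
RMA signal (log2, vertical axis) of the 3 Aph1a and 2 Aph1b probe sets by group, with KO for APLP2-KO (blue), DM for APPsα-DM (red), circles for cortex, squares for hippocampus and bars for the mean ± SD of 3 arrays. Aph1a set 2 is lower and Aph1b set 1 higher on all hippocampus arrays, while Aph1a sets 1 and 3 overlap between the tissues.

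Among the alpha-secretase genes, Adam9 was lower in hippocampus. Its cortex arrays lay between 9.66 and 9.81 with a median of 9.76, and its hippocampus arrays between 9.46 and 9.65 with a median of 9.54, without overlap. The level fell from 9.75 ± 0.06 to 9.55 ± 0.07 (SD, n = 6), a difference of -0.20 ± 0.05 (1.15-fold lower, limma adjusted p = 0.0107). Within a genotype the differences of -0.18 ± 0.07 in APLP2-KO (adjusted p = 0.136) and -0.23 ± 0.07 in APPsα-DM (adjusted p = 0.057) did not pass. Adam10 set 1 was at 9.87 ± 0.10 in cortex and 9.91 ± 0.08 in hippocampus (adjusted p = 0.746), and Adam17 set 2 at 6.87 ± 0.11 and 6.79 ± 0.15 (adjusted p = 0.53). Adam9, Aph1a set 2 and Aph1b set 1 were the members without overlap between the 6 cortex and 6 hippocampus arrays, 3 of 27, where 13.6% of all sets did not overlap.

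The beta-secretase genes were close to the threshold in places. All 4 Bace1 sets had mean tissue differences above 0, from 0.06 to 0.15, and the brightest was at 9.75 ± 0.11 in cortex and 9.90 ± 0.10 in hippocampus (0.15 ± 0.06, adjusted p = 0.0952). Bace2 set 4 passed in APPsα-DM, where hippocampus was lower by 1.33-fold (-0.41 ± 0.10, limma adjusted p = 0.0189), while in APLP2-KO it was at 0.14 ± 0.10 (adjusted p = 0.464). The APPsα-DM difference no longer passed without APPsα-DM cortex array 2 (-0.31, adjusted p = 0.0674), which is one of the arrays high in Ttr, without APPsα-DM hippocampus array 1 (-0.34, adjusted p = 0.0789), or in the mean of all 5 Bace2 sets (-0.23, adjusted p = 0.0981). In a fit of the APPsα-DM arrays alone its adjusted p was 0.0763.

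The other gamma-secretase genes did not pass in the tissue comparisons with all sets and arrays. Psenen was at 10.74 ± 0.04 in cortex and 10.62 ± 0.05 in hippocampus (-0.12 ± 0.04, adjusted p = 0.0723). It did pass in a trended robust fit (adjusted p = 0.0237), with arrays centred on their medians (0.0477) and without dim sets (0.0253). Ncstn set 1 was at 7.35 ± 0.06 and 7.23 ± 0.06 (-0.12 ± 0.05, adjusted p = 0.0903). Psen2 set 1 was at 7.69 ± 0.05 and 7.79 ± 0.09 (0.10 ± 0.05, adjusted p = 0.166).

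Probe sets of a member gene often did not rank the arrays alike. Over the 12 arrays, which share tissue and genotype, Pearson's r between sets of a gene ran from -0.565 to 0.208 for Aph1a, from -0.347 to 0.574 for Adam10, from 0.0813 to 0.874 for Bace1 and from 0.141 to 0.84 for Bace2. It was -0.196 for Psen2 and -0.0439 for Ncstn. Some sets varied little over the arrays, such as Aph1a set 1 (SD 0.05 in cortex and 0.03 in hippocampus, n = 6). There r cannot show whether sets of a gene agree. A change in 1 set of these genes is given as a result about that set.

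For the genes with the largest mean tissue differences in their brightest sets, Aph1a and Adam9, the genes with the most similar pattern were sought among 11634 others by Pearson's r over the 12 arrays. For Aph1a these were Pigt (r = 0.986), an enzyme subunit for attaching GPI anchors, Abtb1 (r = 0.974) and Dlg4 (r = 0.969), which encodes the postsynaptic scaffold PSD-95. For Adam9 they were Cdt1 (r = 0.964), a DNA replication licensing factor, Spata7 (r = 0.954) and Crem (r = 0.95), a transcription factor responsive to cyclic AMP. They were picked for the highest r, and the arrays share tissue, so their own tissue differences follow in part from the choice and are not given as results. Within groups, r was 0.821, 0.771 and 0.695 for the Aph1a neighbours and 0.923, 0.902 and 0.839 for those of Adam9. These values come from the same arrays as the choice, so they too follow in part from it.

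Genes around the secretases were described from 3 lists, each gene by its brightest set. None passed between the genotypes in either tissue (limma), where 0.0110% of the 18193 genes did. At an unadjusted p below 0.05 there were 0 in cortex and 1, a substrate gene, in hippocampus. In the mean tissue difference 26.0% of all genes passed, 11.7% higher and 14.2% lower in hippocampus, with a median difference of -0.02. Of 24 genes for proteins that steer the maturation, transport or inhibition of secretases, 4 were higher in hippocampus, 4 lower and 16 did not pass. Their median difference was 0.03. Tspan5 and Tspan33 encode tetraspanins of the group that carries ADAM10 to the cell surface. Tspan5 fell by 0.60 on the log2 scale (± 0.06 SE, adjusted p = 5.61e-06), while Tspan33 was higher by 0.46 ± 0.06 (adjusted p = 0.000173). The proprotein convertase gene Pcsk5 was higher by 0.51 ± 0.08 (adjusted p = 0.000668), and Rtn4, the gene of a reticulon family whose members bind BACE1, was lower (-0.23 ± 0.04, adjusted p = 0.00153).

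Of 22 measured substrate genes from a list of 23, 8 were higher in hippocampus, 7 lower and 7 did not pass, with a median of 0.05. The cell adhesion gene Chl1, a BACE1 substrate, was higher by 0.59 ± 0.05 (adjusted p = 6.32e-06), as was Sez6l, another BACE1 substrate, by 0.59 ± 0.07 (adjusted p = 4.77e-05). The ephrin receptor gene Epha4 was higher by 0.80 ± 0.09 (adjusted p = 2.5e-05). Nrg1 encodes neuregulin 1, whose cleavage by BACE1 supports myelination, and it was lower (-0.68 ± 0.07, adjusted p = 1.79e-05), at a dim mean level of 4.94. Of 6 measured genes from a list of 7 for other proteases that cut APP, Casp6 was higher (0.25 ± 0.06, adjusted p = 0.0103), and the lysosomal cathepsin B gene Ctsb (-0.25 ± 0.04, adjusted p = 0.000543) and Lgmn (-0.20 ± 0.05, adjusted p = 0.0146) were lower. Lgmn encodes asparagine endopeptidase. The brightest sets of the 10 secretase genes, by the same measure, lay between -0.72 (Aph1a set 2) and 0.15 (Bace1 set 4). Aph1a sets 1 and 3 were each at -0.02.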

How the data were processed

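The deposited values are log2 signals that the authors made with RMA and the affy package, per the submitters' processing notes. No tool version was given in the sources used here. This method adjusts for background, normalises arrays by quantiles and summarises each probe set, which compresses dim differences. The table held 45101 probe sets with values from 1.80 to 14.5, of which 64 control sets were left out. Symbols came from the platform annotation: 34945 tested sets had 1 symbol, 932 several and 9160 none. In R 4.3.3, limma 3.58.1 (lmFit, eBayes) fitted the means of 4 groups over 12 arrays (8 residual and 4.25 prior degrees of freedom). The mean genotype effect used the tissue average of each genotype and replicate number, 3 against 3. P-values are two-sided and Benjamini-Hochberg adjusted over 45037 sets at 0.05, with no filter on dim sets. The code was tested on simulated data.

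All 10 members were named, with up to 4 genes of smallest p from each list and the 3 genes most like each of 2 members (mean of at least 6). Members and lists were chosen with earlier results of these data known. Alternatives were dim sets left out, arrays centred on medians or normalised again, a trended robust fit, only the arrays compared, gene means, a replicate block, each array left out and, chosen after seeing the data, 2 cortex arrays high in Ttr left out. Promoter sequences and chromosomes are from RefSeq (GRCm38.p6).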

Additional observations from a re-analysis of the deposited data

Results flagged for a closer look

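Bace2 set 4 differed in opposite directions between the groups. Its genotype difference was 0.36 in cortex and -0.19 in hippocampus, and no arrays of the 2 genotypes overlapped in either tissue, although in hippocampus the nearest arrays read 6.189 and 6.187. Seen the other way, its tissue difference was 0.14 in APLP2-KO and -0.41 in APPsα-DM, again without overlap. The difference between these effects was -0.55 ± 0.14 (SE) on the log2 scale, with an unadjusted p of 0.00219 and an adjusted p of 1 (limma). Of the 45037 probe sets, 163 (0.362%) were opposite without overlap in the genotype comparisons and 107 (0.238%) in the tissue comparisons. For set 4 both readings rest on the same arrays, so they are not independent results. Leaving out each array in turn gave -0.63 to -0.44 for set 4. In the mean of all 5 Bace2 sets the opposite directions were lost: the hippocampus genotype difference was 0.0807, the APLP2-KO tissue difference -0.0401, and the difference between effects -0.19 (adjusted p = 1).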

How the results depend on the processing

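Among 111 alternative values of the members' counts, 101 stayed within 1.5 times, 7 were lower and 3 higher. The 101 include every count of the genotype comparisons and of their change with tissue. These were 0 throughout, where at most 0.0289% of all sets passed. Of the tissue counts, 18 of 19 stayed for the mean of both genotypes, 11 of 14 in APLP2-KO and 8 of 14 in APPsα-DM. The count of 3 in the mean tissue difference became 6 without dim sets (39.5% of all sets then tested) and 3 to 4 when each array was left out. In APPsα-DM the count of 2 became 5 without dim sets (21.9% of all sets then tested, against 10.6% before), 4 with a trended robust fit (11.8%), 1 from the arrays compared alone (8.23%), 1 without the 2 cortex arrays high in Ttr (8.04%, chosen after seeing the data) and 1 to 2 with each array left out. In APLP2-KO it was 1 to 2 with each array left out. Of 740 alternative values of named sets, 691 kept direction and side of the threshold, 9 lost and 12 gained the call, and 28 changed sign, none of which had passed. In hippocampus the genotype difference became -0.0026 (Adam10 set 1), -0.0069 (Ncstn set 1) and -0.00016 (Psenen) after a second quantile normalisation, 0.0030 (Adam9) and 0.0050 (Aph1a set 2) with centred medians, and -0.0782 (Adam10), -0.0565 (Ncstn), 0.0300 (Aph1a) and 0.0807 (Bace2) as gene means. The Bace2 gene mean also turned the APLP2-KO tissue difference to -0.0401, and without the arrays high in Ttr the Adam9 cortex difference was -0.0058. Leaving out each array gave cortex genotype differences of -0.0288 to 0.0895 (Adam10 set 1), -0.0830 to 0.0547 (Adam17 set 2), -0.0055 to 0.10 (Aph1b set 2) and -0.0150 to 0.0284 (Psenen). In hippocampus it gave -0.0307 to 0.0802 (Adam10 set 1), -0.0512 to 0.0402 (Adam9), -0.0702 to 0.0681 (Aph1a set 2), -0.0142 to 0.10 (Bace1 set 4), -0.0131 to 0.0580 (Ncstn set 1) and -0.0229 to 0.0361 (Psenen). The mean tissue difference of Adam10 set 1 ran from -1.1e-05 to 0.0591. The cause of these shifts was not tested. Over all its alternatives, the mean tissue difference of Aph1a set 2 ran from -0.79 to -0.26 (adjusted p from 1.96e-06 to 0.00161), that of Aph1b set 1 from 0.24 to 0.30 (0.00112 to 0.00996) and that of Adam9 from -0.23 to -0.18 (0.00321 to 0.0289). Same-numbered cortex and hippocampus arrays of a genotype correlated at 0.0193 to 0.155 in their deviations from group means. Among the 3 hippocampus arrays of its genotype, every cortex array correlated best with its own number. Same-numbered arrays of the 2 genotypes, which are different mice, correlated at 0.0288 to 0.206 in hippocampus and at -0.255 to -0.0796 in cortex. With the replicate number as a block, the mean tissue count was again 3 and Aph1a set 2 stayed at -0.72 (adjusted p = 0.000177). As a random block, Adam9 passed in APPsα-DM (adjusted p = 0.0438). Dim signal limits 7 member sets, where RMA compresses differences.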
